A study of Homo sapiens with 18 samples.

Results

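The 9 genes described here encode the cyclins that accompany a dividing cell through its cycle: the D-type cyclins CCND1, CCND2 and CCND3, the E-type cyclins CCNE1 and CCNE2, cyclin A2 (CCNA2), the B-type cyclins CCNB1 and CCNB2, and cyclin F (CCNF). They were taken from the count table by gene symbol, with no threshold on a measured value, and are 9 of the 25296 genes the authors' table lists. All 9 passed the filter on low counts and were among the 18226 genes tested. RNA from U2OS, a human osteosarcoma cell line, was sequenced in 18 libraries, 3 biological replicates in each of 6 groups. The groups were cells carrying the empty retroviral vector MigR1 (EV), cells overexpressing wild-type DNMT3A (WT) and cells overexpressing mutant DNMT3A (MUT), each untreated or after 24 h in 10 µM cytarabine. DNMT3A is a DNA methyltransferase, and cytarabine (Ara-C) is a chain-stalling nucleoside that blocks DNA synthesis. The mutation is named R882C in the series text and R882H in the sample labels, and the cells without cytarabine are a vehicle control in the former and untreated in the latter. Whether each line is a clone or a pool is not given in the sources used here, and each genotype is represented by 1 line, so differences between lines cannot be told apart from differences between those particular cell populations.

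Cyclins are the regulatory partners of the cyclin-dependent kinases (CDKs), and most of them accumulate and are destroyed once per cycle. D-type cyclins with CDK4 and CDK6 answer growth signals in G1 and begin the inactivation of the retinoblastoma protein. E-type cyclins with CDK2 act at the entry into S phase, cyclin A2 acts with CDK2 and CDK1 through S phase and G2, and B-type cyclins with CDK1 drive mitosis. Cyclin F is an F-box protein that directs other proteins to degradation, and it binds no CDK. The comparisons below ask which of these transcripts changed with cytarabine in each line and whether the lines differed. Cell cycle phase itself was not measured. In bulk RNA, fewer cells in a phase and less RNA per cell cannot be told apart.

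Library totals ran from 15391484.5 to 21850378 estimated counts, and levels are given as CPM, counts scaled to a common library size after TMM normalization, with SD over n = 3 libraries. The TMM factors were 0.862 to 0.961 in untreated and 1.04 to 1.11 in treated libraries. Treated CPM was thus lower, against untreated CPM, than under scaling by library totals alone, which was not among the alternatives. Cytarabine effects and overlaps of CPM between treated and untreated libraries rest on this scaling. DNMT3A, the introduced gene, gave 26.9 ± 0.662 CPM in untreated EV, 133 ± 5.17 CPM in untreated WT and 456 ± 185 CPM in untreated MUT. Both overexpressing lines were above EV, as labelled, MUT was also above WT, and the table does not separate endogenous from introduced transcripts. The 3 untreated MUT libraries stood apart from each other more than those of any other group. Counts of replicate pairs differed with a chi-square per degree of freedom of 21.2 to 46.8 there, against 2.45 to 15.2 within the other 5 groups, so results that rest on 1 of them are given without it as well. Of 7 mesenchymal and bone markers, vimentin (VIM) was at 1099.7 to 2281 CPM and SPARC at 888 to 1151 CPM as group means, while COL1A2 did not exceed 7.97 CPM. Of these 7 markers 2, 2 and 3 rose and 2, 2 and 1 fell with cytarabine in EV, WT and MUT: VIM fell and COL1A2 rose in every line, and COL1A1 rose in EV (177 to 241 CPM) and MUT (166 to 271 CPM). Of all tested genes, 26.1%, 26.3% and 30.4% rose and 22.9%, 22.7% and 25.9% fell in EV, WT and MUT. Their summed level ran from 2275 to 3933 CPM over the libraries. The summed level of 5 epithelial markers ran from 13.3 CPM in untreated WT to 35.2 CPM in treated MUT. It was 16.4 to 19.3 CPM in untreated EV and 28.8 to 30.8 CPM in treated EV, 13.3 to 14.9 and 15.3 to 22.9 CPM in WT, and 19.3 to 23.8 and 26.0 to 35.2 CPM in MUT. Of these 5 markers 2, CDH1 and CLDN4, rose with cytarabine in every line, and the part of this shift in the cyclin results was not tested. Of the blood cell markers PTPRC and CD33 together reached at most 6.99 CPM, HBB had at most 3 counts in any library, and CD3E was not analysed here.

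With cytarabine, the 4 cyclins of S phase, G2 and mitosis (CCNA2, CCNB1, CCNB2 and CCNF) fell in all 3 lines, and CCND3 rose in all 3 lines. CCNE2 rose in WT and MUT. CCND2 and CCNE1 rose in WT. CCND1 passed the test in no line at an edgeR adjusted p under 0.05, with log2 fold changes of 0.02, 0.09 and 0.02 and edgeR adjusted p of 0.897, 0.493 and 0.862 in EV, WT and MUT. An effect here is the log2 fold change of treated over untreated cells of the same line, from edgeR's quasi-likelihood test with p-values adjusted over all tested genes by the Benjamini-Hochberg method. In EV 1 of the 9 cyclins rose, where 26.1% of all tested genes did, and 4 fell, where 22.9% did. In WT 4 rose against 26.3% of all genes and 4 fell against 22.7%. In MUT 2 rose against 30.4% and 4 fell against 25.9%. The response was wide, so a cyclin that passed the test did what 49.1%, 49.0% and 56.3% of all genes did in EV, WT and MUT. The median log2 fold change of the 9 cyclins was 0.02 in EV, 0.09 in WT and 0.02 in MUT, beside 0.05, 0.03 and 0.05 over all tested genes. None of these 19 calls was lost when any single library was left out.

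**Figure D1:**
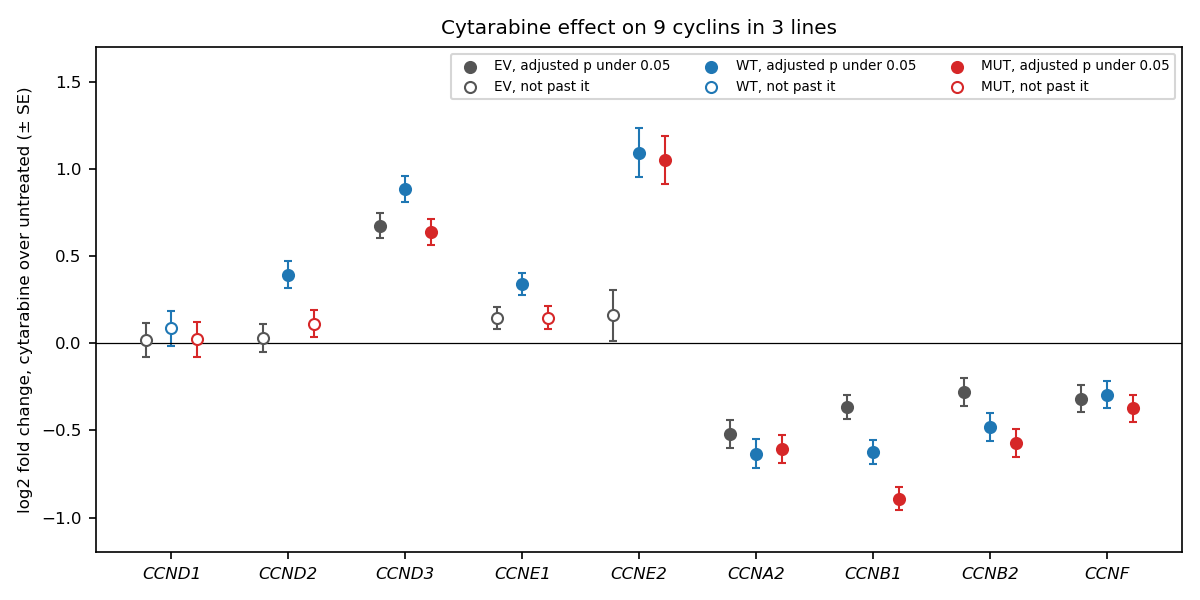
Log2 fold change of treated over untreated cells for the 9 cyclins, in the EV (grey), WT (blue) and MUT (red) lines; error bars are the SE of the edgeR fit, filled points have an adjusted p under 0.05 and open points do not. CCND3 and, in WT and MUT, CCNE2 lie furthest above the zero line, and the other D-type and E-type points lie nearer to it on the same side. CCNA2, CCNB1, CCNB2 and CCNF lie below it in every line.

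The D-type cyclins differed from one another. CCND1 (chromosome 11, 69641087 to 69654475, plus strand) was the D-type cyclin with the highest CPM. Its libraries read 325, 328 and 329 CPM in untreated EV and 294, 371 and 329 CPM in treated EV, 292, 298 and 319 and then 315, 336 and 313 CPM in WT, and 270.3, 348 and 245 and then 291, 301 and 284 CPM in MUT. On TMM-scaled CPM, treated and untreated libraries overlapped in every line, and untreated MUT replicate 2 was the highest untreated library. As shares of the library totals, they overlapped in MUT but not in EV or WT. In EV the lowest treated share was 6010 of 18432925.5 counts and the highest untreated share 5344 of 17109480.8. In WT these were 6481 of 19080286.6 and 5792 of 19046042. The CCND1 effects under scaling by library totals were not tested. CCND1 shares 497 exon bases with LTO1 on the opposite strand, which fell in every line (-0.43, -0.36 and -0.38), and CCND2 shares 162 with CCND2-AS1, which had at most 6 counts in any library. CCND2 also shares 999 exon bases with an unnamed gene on the same strand and 106 with another on the opposite strand. Neither is among the counted genes, and the part of shared reads in the CCND2 values was not tested. CCND2 (chromosome 12, 4273772 to 4305351, plus strand) was at 178, 162 and 163 CPM in untreated EV and 169, 175 and 170.2 CPM in treated EV. The 2 groups overlapped on TMM-scaled CPM but not as shares of the library totals. The lowest treated share was 2800 of 15391484.5 counts and the highest untreated share 3055 of 18307481.7. In WT the untreated libraries read 205, 216 and 224 CPM and the treated ones 277, 284 and 286 CPM. These groups did not overlap, and the rise was 0.39 (SE 0.0773, edgeR adjusted p = 3.09e-04). In MUT they read 139, 134 and 165 CPM untreated and 145, 171 and 158 CPM treated, a log2 fold change of 0.11 (SE 0.0779, edgeR adjusted p = 0.231). Without untreated MUT replicate 3 this became 0.18 and passed the test (edgeR adjusted p = 0.0292).

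CCND3 (chromosome 6, 41934933 to 42050358, minus strand) was the cyclin that rose in every line. Untreated EV libraries read 107, 112 and 108 CPM and treated ones 169.5, 184 and 168 CPM, a rise of 0.68 (SE 0.0743, edgeR adjusted p = 4.52e-07) on the log2 scale, or 1.60-fold. In WT the values were 98.9, 93.0 and 94.9 CPM and then 171, 175 and 183 CPM, a rise of 0.89 (SE 0.0744, edgeR adjusted p = 1.54e-08), or 1.85-fold. MUT went from 90.0, 108 and 115 CPM to 164, 159 and 164 CPM, a rise of 0.64 (SE 0.0742, edgeR adjusted p = 5.92e-07), or 1.56-fold. All 9 treated libraries, at 159 CPM or more, lay above all 9 untreated ones, at 115 CPM or less. The D-type cyclins share 1 set of kinases, so their make-up was also read within each library, where no scaling between libraries enters. On CPM per kb of the canonical transcript, CCND3 made up 34.2 ± 0.724% of the 3 D-type cyclins in untreated EV and 45.1 ± 1.42% in treated EV. Its share went from 31.1 ± 1.43% to 42.2 ± 1.09% in WT and from 36.3 ± 3.63% to 46.2 ± 1.39% in MUT. The share of CCND1 was 49.3 ± 0.478% and then 41.0 ± 2.03% in EV, 47.1 ± 0.924% and then 36.7 ± 1.19% in WT, and 47.7 ± 5.78% and then 39.8 ± 0.754% in MUT. CCND3 was thus below CCND1 on this scale in the mean of every untreated group and above it in the mean of every treated group, within the canonical transcript lengths of 2026 bases for CCND3 and 4238 bases for CCND1. With the union of all annotated exons as length, 5761 and 4761 bases, CCND1 was above CCND3 in all 6 groups.

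**Figure D2:**
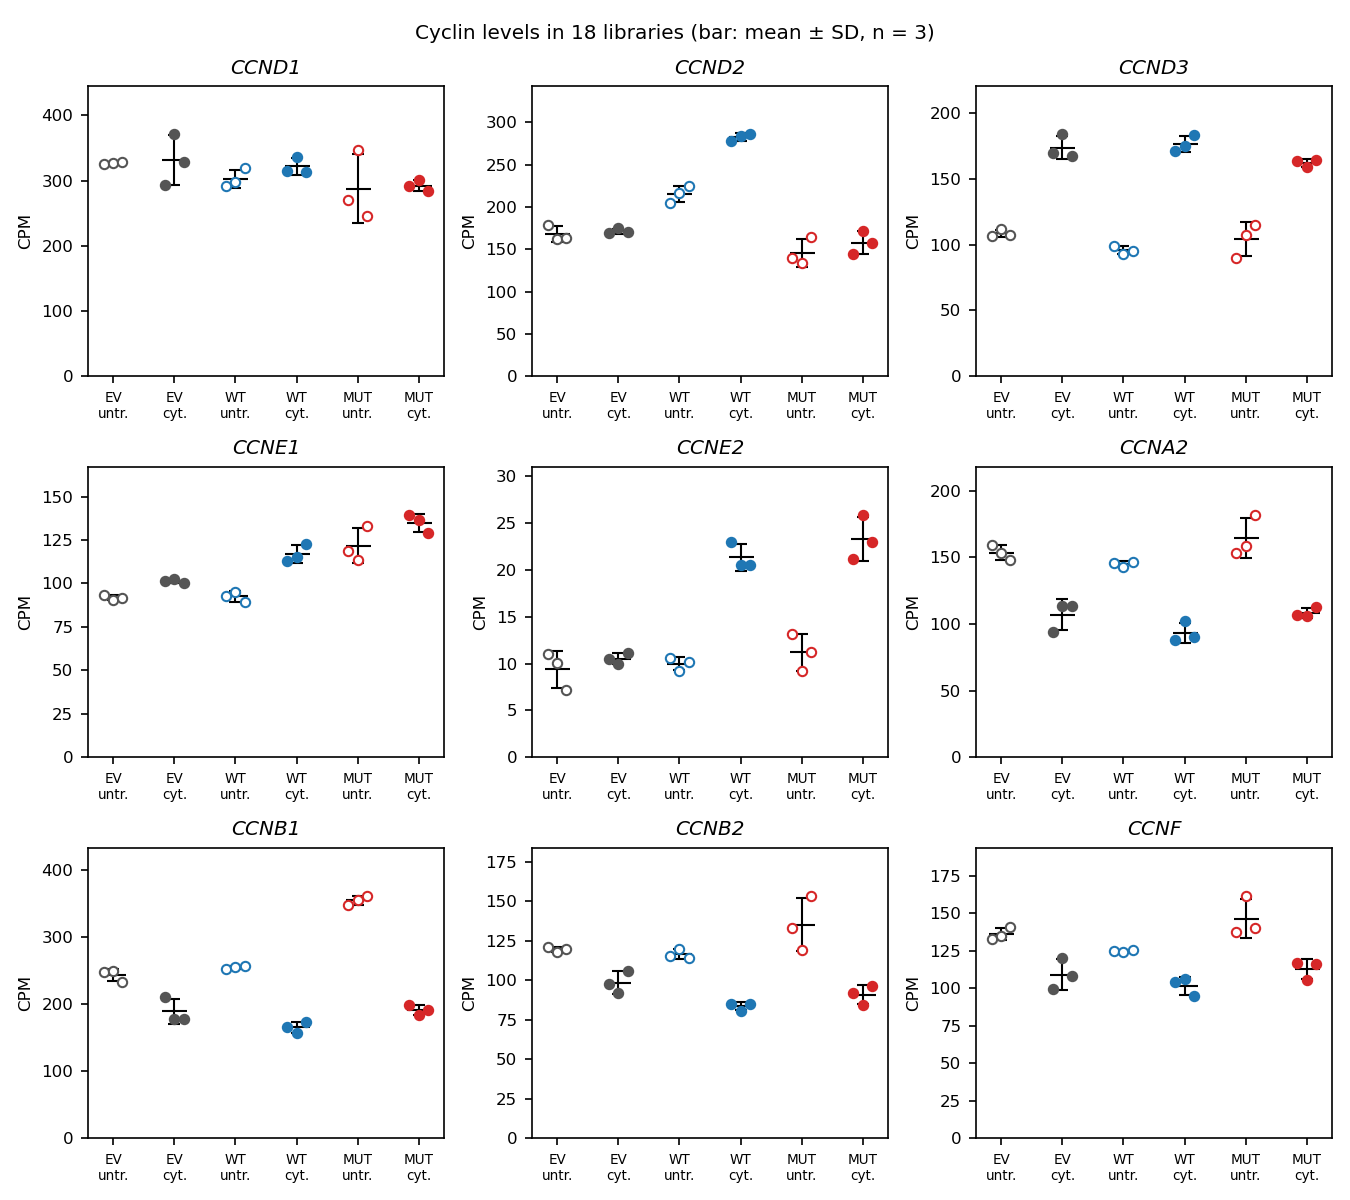
CPM of each cyclin in the 18 libraries by group (untr., untreated, open circles; cyt., 24 h in 10 µM cytarabine, filled circles; EV grey, WT blue, MUT red); horizontal bars are means and whiskers SD, n = 3, and each axis starts at 0. Treated circles of CCND3 are above and those of CCNA2 below all untreated circles of the same line, and untreated MUT is highest for CCNB1.

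The E-type cyclins differed in level and in response. CCNE1 (chromosome 19, 29811898 to 29824309, plus strand), the more abundant one, read 93.2, 90.4 and 91.9 CPM in untreated EV and 101, 103 and 100.3 CPM in treated EV. These libraries did not overlap, but the log2 fold change of 0.15 (SE 0.0648, edgeR adjusted p = 0.0712) did not pass the test. In EV 6 of the 9 cyclins had groups that did not overlap, as did 58.7% of all tested genes. The same held for 8 cyclins in WT (65.3% of all genes) and 6 in MUT (56.6%). In WT, CCNE1 went from 92.9, 95.2 and 89.4 CPM to 113, 115 and 123 CPM, a rise of 0.34 (SE 0.0645, edgeR adjusted p = 2.22e-04). In MUT it read 119, 113 and 133 CPM untreated and 139, 136 and 129 CPM treated. These groups overlapped on TMM-scaled CPM, and the log2 fold change was 0.15 (SE 0.0640, edgeR adjusted p = 0.0570). The EV and MUT values were near the threshold. Without untreated MUT replicate 2 or 3 the EV value of 0.15 passed it (edgeR adjusted p = 0.0485 and 0.0191), and without replicate 3 the MUT value of 0.19 did (edgeR adjusted p = 0.00833).

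CCNE2 (chromosome 8, 94879770 to 94896679, minus strand) was the cyclin with the lowest level in every group and the one with the largest log2 rise in WT and MUT among the 9. Untreated libraries of all lines lay between 7.19 and 13.1 CPM. EV libraries read 11.0, 10.0 and 7.19 CPM untreated and 10.5, 9.93 and 11.1 CPM treated. These groups overlapped on TMM-scaled CPM, with a log2 fold change of 0.16 (SE 0.145, edgeR adjusted p = 0.390). In WT the treated libraries read 23.0, 20.5 and 20.5 CPM against 10.6, 9.21 and 10.2 CPM untreated, a rise of 1.09 (SE 0.139, edgeR adjusted p = 2.50e-06), or 2.13-fold. In MUT they read 21.2, 25.8 and 22.9 CPM against 13.1, 9.18 and 11.3 CPM, a rise of 1.05 (SE 0.137, edgeR adjusted p = 2.57e-06), or 2.07-fold. Every treated WT and MUT library lay above every EV library and every untreated one. The difference between the effects was itself tested: WT minus EV was 0.93 (SE 0.201, edgeR adjusted p = 0.0563) and MUT minus EV 0.89 (SE 0.200, edgeR adjusted p = 0.06004), both just short of the threshold. The value for WT minus EV passed it without any 1 of untreated EV replicate 3 and untreated MUT replicates 1, 2 and 3 (0.93 to 1.09, edgeR adjusted p = 0.0196 to 0.0440). That for MUT minus EV passed it without untreated EV replicate 3 (1.05, edgeR adjusted p = 0.0450) or untreated MUT replicate 1 (1.03, edgeR adjusted p = 0.0145). Without other single libraries the edgeR adjusted p rose to as much as 0.216 for WT minus EV and 0.171 for MUT minus EV. Over the other alternatives without a minimum fold change it reached 0.265 for MUT minus EV. With DESeq2 the value for MUT minus EV passed the threshold (DESeq2 adjusted p = 0.00581). That for WT minus EV passed it with DESeq2 and with only the groups compared in the fit. Between treated lines CCNE2 was higher than in EV by 1.02 (SE 0.138, edgeR adjusted p = 4.28e-05) in WT and by 1.15 (SE 0.137, edgeR adjusted p = 1.86e-05) in MUT. As a share of E-type transcripts on CPM per kb, CCNE2 was 6.95 ± 1.35% in untreated and 7.03 ± 0.451% in treated EV. The share went from 7.32 ± 0.627% to 11.8 ± 1.05% in WT and from 6.29 ± 1.03% to 11.2 ± 1.10% in MUT. In GENCODE, 1629 exon bases of CCNE2 are shared with exons of INTS8 on the opposite strand, and reads there may belong to either gene, since the strand handling of the counting is not given in the sources used here. INTS8, a subunit of the Integrator complex, had untreated means of 33.7 ± 2.70 (EV), 33.3 ± 2.12 (WT) and 34.0 ± 1.46 CPM (MUT) and treated means of 38.3 ± 4.15, 38.6 ± 0.713 and 37.7 ± 3.29 CPM. Its cytarabine effects were 0.18, 0.21 and 0.15 on the log2 scale. The part of shared reads in the CCNE2 values was not tested.

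The cyclins of S phase, G2 and mitosis fell together. CCNA2 (chromosome 4, 121816444 to 121823934, minus strand) read 159, 153 and 148 CPM in untreated EV and 94.0, 114 and 114 CPM in treated EV, a change of -0.52 (SE 0.0814, edgeR adjusted p = 2.96e-05). In WT it went from 146, 143 and 147 CPM to 88.3, 102 and 90.2 CPM, -0.63 (SE 0.0816, edgeR adjusted p = 3.12e-06), and in MUT from 154, 159 and 182 CPM to 107, 106 and 113 CPM, -0.60 (SE 0.0812, edgeR adjusted p = 3.60e-06). All 9 treated libraries lay below all 9 untreated ones. CCNA2 shares 254 exon bases with EXOSC9 on the opposite strand, a gene at a lower level (35.3 to 51.7 CPM as group means) that also fell, with log2 fold changes of -0.28, -0.25 and -0.29.

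CCNB1 (chromosome 5, 69167010 to 69178246, plus strand) had the widest range of effects among these 4 cyclins. Its libraries read 248, 250.5 and 234 CPM in untreated EV and 211, 179 and 179 CPM in treated EV, a change of -0.36 (SE 0.0683, edgeR adjusted p = 1.94e-04). WT went from 252, 256 and 258 CPM to 166, 157 and 174 CPM, -0.62 (SE 0.0684, edgeR adjusted p = 4.21e-07). MUT went from 348, 356 and 361 CPM to 199, 184 and 191 CPM, -0.89 (SE 0.0684, edgeR adjusted p = 3.02e-09). The 3 untreated MUT libraries were the highest of all 18, and they differed little from one another although this group was otherwise the most variable. The treated means were 189.5 ± 18.9 (EV), 166 ± 8.495 (WT) and 192 ± 7.495 CPM (MUT). CCNB2 (chromosome 15, 59105078 to 59125046, plus strand) fell, with log2 fold changes of -0.28 in EV (SE 0.0800), -0.48 in WT (SE 0.0802) and -0.57 in MUT (SE 0.0799), with edgeR adjusted p of 0.00685, 6.06e-05 and 5.84e-06. Its libraries read 121, 118 and 120.0 and then 97.8, 91.8 and 106 CPM in EV, 115, 120.0 and 114 and then 85.2, 80.8 and 84.8 CPM in WT, and 133, 119.5 and 153 and then 92.0, 84.5 and 96.6 CPM in MUT. On TMM-scaled CPM, no treated library reached an untreated one in any line. As shares of the library totals, CCNB2 groups did not overlap in WT and MUT but did in EV. Treated EV replicate 3 had 2479 of 21850378 counts, a larger share than the 2020 of 18193138.5 in untreated EV replicate 2. The CCNB2 effect under scaling by library totals was not tested.

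CCNF (chromosome 16, 2429394 to 2458855, plus strand) fell least among the 4 in WT and MUT. It read 133, 135 and 141 CPM in untreated and 99.5, 120.0 and 108 CPM in treated EV, 125, 124 and 126 and then 104, 106 and 94.9 CPM in WT, and 137, 161 and 140.4 and then 117, 105 and 116 CPM in MUT. The changes were -0.32 (SE 0.0774, edgeR adjusted p = 0.00199) in EV, -0.30 (SE 0.0773, edgeR adjusted p = 0.00357) in WT and -0.37 (SE 0.0770, edgeR adjusted p = 4.10e-04) in MUT. Groups did not overlap in any line on TMM-scaled CPM. As shares of the library totals, they did not overlap in WT but did in EV and MUT. Treated EV replicate 2 had 1922 of 15391484.5 counts, a larger share than the 2274 of 18307481.7 in untreated EV replicate 1. Treated MUT replicate 1 had 2664 of 21390566.7, a larger share than the 2458 of 20323937.1 in untreated MUT replicate 3. The CCNF effects under scaling by library totals were not tested. CCNF shares 527 and 219 exon bases with unnamed genes on the opposite strand, which are not among the counted genes.

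Promoters of mitotic genes often carry a cell cycle genes homology region (CHR), bound by the DREAM and B-MYB complexes, together with CCAAT boxes, bound by NF-Y. Since CCNA2, CCNB1, CCNB2 and CCNF fell together and CCNE1 did not, the 250 bases before the RefSeq start of each (GRCh38.p14) are shown, 5′ to 3′ on the gene's strand, with matches to TTTGAA or TTTAAA and to CCAAT, on either strand, in capitals. The outermost annotated start of each gene lies inside its window.
CCNA2 (chr4:121823884-121824133, minus strand): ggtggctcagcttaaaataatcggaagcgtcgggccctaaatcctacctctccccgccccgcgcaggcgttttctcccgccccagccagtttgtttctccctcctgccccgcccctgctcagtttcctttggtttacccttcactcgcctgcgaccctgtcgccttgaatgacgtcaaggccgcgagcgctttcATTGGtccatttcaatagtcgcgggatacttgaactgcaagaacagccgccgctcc
CCNB1 (chr5:69166900-69167149, plus strand): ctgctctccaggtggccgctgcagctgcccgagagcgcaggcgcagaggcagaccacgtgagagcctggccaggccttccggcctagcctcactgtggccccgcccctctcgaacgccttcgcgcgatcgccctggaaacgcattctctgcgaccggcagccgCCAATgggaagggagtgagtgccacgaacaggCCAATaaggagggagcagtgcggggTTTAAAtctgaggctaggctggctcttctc
CCNB2 (chr15:59104896-59105145, plus strand): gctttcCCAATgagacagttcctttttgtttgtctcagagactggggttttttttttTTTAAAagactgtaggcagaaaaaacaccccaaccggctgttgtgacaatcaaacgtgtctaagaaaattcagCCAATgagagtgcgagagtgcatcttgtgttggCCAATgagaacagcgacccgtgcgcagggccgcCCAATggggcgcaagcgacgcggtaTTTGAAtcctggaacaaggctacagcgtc
CCNF (chr16:2429197-2429446, plus strand): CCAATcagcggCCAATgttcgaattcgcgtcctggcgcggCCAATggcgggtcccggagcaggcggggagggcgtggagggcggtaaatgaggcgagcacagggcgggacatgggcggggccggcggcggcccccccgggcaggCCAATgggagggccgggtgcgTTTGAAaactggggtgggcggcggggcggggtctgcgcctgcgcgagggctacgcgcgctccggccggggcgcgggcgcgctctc
CCNE1 (chr19:29811741-29811990, plus strand): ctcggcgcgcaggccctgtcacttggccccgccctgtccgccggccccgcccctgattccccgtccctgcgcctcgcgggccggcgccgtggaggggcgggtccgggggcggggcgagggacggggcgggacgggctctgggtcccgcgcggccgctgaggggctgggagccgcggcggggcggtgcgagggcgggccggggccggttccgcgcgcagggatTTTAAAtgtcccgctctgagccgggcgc
Of 35116 windows of this length, 21.9% held TTTGAA or TTTAAA, 32.0% held CCAAT and 7.64% held both. CCNB1, CCNB2 and CCNF held both. The CHR-like word began 30 bases before the start in CCNB1 and 29 in CCNB2, where a second one lay 193 bases before it, and 85 bases before the start in CCNF. CCNB1 had 2 CCAAT words and CCNB2 and CCNF had 4 each, where 2.93% of windows held 3 or more. CCNA2 had 1 CCAAT word, on the opposite strand and so printed as ATTGG, and no TTTGAA or TTTAAA. Variants of these CHR words were not searched, so the CCNA2 window cannot be said to lack a CHR. CCNE1 had TTTAAA 28 bases before its start and no CCAAT. RefSeq windows were found for 6 of the 9 cyclins, with 3 windows for CCND3, of which none held a CHR-like word and 2 held CCAAT, and none for CCND1, CCND2 and CCNE2. None of the windows held TTTCCCGC, TTTCGCGC, TTTGCCGC or TTTGGCGC, words of the E2F site, which 2.79% of all windows held. A match describes the letters only and shows no binding, and a link between these words and the changes with cytarabine was not tested.

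The untreated lines differed in some cyclins before any drug was given. CCNB1 was higher in MUT than in EV by 0.54 (SE 0.0681, edgeR adjusted p = 2.54e-05) and higher than in WT by 0.48 (SE 0.0679, edgeR adjusted p = 6.54e-05). CCNE1 was higher in MUT than in EV by 0.41 (SE 0.0648, edgeR adjusted p = 2.47e-04) and higher than in WT by 0.40 (SE 0.0646, edgeR adjusted p = 2.48e-04). CCND2 was higher in WT than in EV by 0.36 (SE 0.0778, edgeR adjusted p = 0.00422) and lower in MUT than in WT, at -0.56 (SE 0.0780, edgeR adjusted p = 5.44e-05). The comparisons of WT and of MUT with EV share the EV libraries. In WT 1 cyclin differed from EV, where 11.7% of all genes did. In MUT 2 cyclins differed from EV (19.9% of all genes) and 4 from WT (21.2%). The fourth was CCNF, higher in MUT by 0.23 (SE 0.0770, edgeR adjusted p = 0.0404), which lost its call without any 1 of 11 libraries: untreated EV 1, 2 or 3, treated EV 3, untreated WT 1, 2 or 3, treated WT 1 or 2, untreated MUT 2 and treated MUT 3. The CCNF value then ran from 0.19 to 0.26, and the edgeR adjusted p from 0.05001 to 0.101. Leaving out untreated MUT replicate 2 brought 3 more cyclins past the threshold for MUT against EV, CCND1 at -0.31 (edgeR adjusted p = 0.00511), CCNE2 at 0.40 (0.0491) and CCNB2 at 0.29 (0.01002). It also brought CCNA2 at 0.25 (0.0419) and CCNB2 at 0.33 (0.00335) past it for MUT against WT. Leaving out replicate 3 did so for CCND2 against EV, at -0.27 (0.00681), and leaving out replicate 1 for CCND3 against WT, at 0.22 (0.0209). CCND3 in WT against EV, at -0.18, passed it at -0.18 without untreated MUT 1 (0.0454) and at -0.19 without untreated MUT 3 (0.0400).

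The treated lines also differed in some cyclins. Beside CCNE2, CCND2 was higher in WT than in EV by 0.72 (SE 0.0777, edgeR adjusted p = 2.81e-06) and lower in MUT than in WT, at -0.84 (SE 0.0778, edgeR adjusted p = 3.86e-07). CCNE1 was again higher in MUT than in EV, by 0.41 (SE 0.0642, edgeR adjusted p = 2.99e-04). For CCNB1 the difference between treated MUT and EV did not pass the test, at 0.01 (SE 0.0682, edgeR adjusted p = 0.926). In treated WT 4 cyclins differed from EV, where 16.5% of all genes did. In treated MUT 2 differed from EV (14.0%) and 3 from WT (19.8%). The remaining calls were near the threshold. CCNE1 was higher in WT than in EV by 0.20 (SE 0.0643, edgeR adjusted p = 0.0341) and in MUT than in WT by 0.20 (SE 0.0639, edgeR adjusted p = 0.0294). CCNB2 was lower in WT than in EV, at -0.24 (SE 0.0803, edgeR adjusted p = 0.0484), and CCNB1 higher in MUT than in WT, at 0.21 (SE 0.0683, edgeR adjusted p = 0.0356). CCNB2 lost its call without any of 15 single libraries, all but treated EV 2 and untreated MUT 2 and 3 (edgeR adjusted p 0.0522 to 0.206). CCNE1 in WT against EV lost it without any treated EV or WT library or untreated WT 2 (0.0505 to 0.149). CCNE1 in MUT against WT lost it without treated WT 1 or 2 or treated MUT 1 or 2 (0.0806 to 0.120), and CCNB1 without untreated WT 2, treated WT 1 or 2 or treated MUT 1 or 3 (0.06 to 0.160). In turn CCNA2 passed the threshold in WT against EV at -0.28 without treated EV 1 and at -0.20 without untreated MUT 3, and in MUT against WT at 0.21 without treated EV 1 or untreated MUT 3 and at 0.28 without treated WT 2. CCNB1 in WT against EV passed it at -0.23 without treated EV 2 and at -0.21 without untreated MUT 2 or 3.

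Of the 27 differences between the lines' cytarabine effects, 1 passed the test. The fall of CCNB1 was larger in MUT than in EV, with a difference of -0.53 (SE 0.0963, edgeR adjusted p = 0.0246), and 0.214% of all genes passed this comparison. As given above, CCNB1 was higher in MUT than in EV without the drug, and the treated libraries of the 2 lines overlapped. The call was lost without untreated EV 1, 2 or 3, treated EV 1, untreated WT 3 or treated MUT 2 or 3, with values of -0.54 to -0.44 and edgeR adjusted p of 0.0514 to 0.101. Against WT the difference for CCNB1 was -0.27 (SE 0.0962, edgeR adjusted p = 0.180). No cyclin passed for WT minus EV, where 0.285% of all genes did, or for MUT minus WT, where 1.0% did. At an unadjusted edgeR p under 0.05 the counts were 4 cyclins for WT minus EV (CCND2, CCNE1, CCNE2, CCNB1; 9.96% of all genes) and 4 for MUT minus WT (CCND2, CCND3, CCNE1, CCNB1; 15.4%). With DESeq2 1 cyclin passed in each, CCNE2 for WT minus EV and CCNB1 for MUT minus WT. The largest of the differences that missed the threshold, after those of CCNE2, was that of CCND2 for WT minus EV, 0.36 (SE 0.110, edgeR adjusted p = 0.245), which passed it without untreated MUT 3 (0.36, edgeR adjusted p = 0.0447). Without untreated MUT 2, CCNB2 passed for MUT minus EV (-0.41, 0.0485), and without untreated MUT 1, CCND3 passed for MUT minus WT (-0.34, 0.0313).

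Levels can be set beside each other between genes only per length. On CPM per kb of the canonical transcript, CCNB1 was the highest of the 9 cyclins in every untreated group, at 120.3 ± 4.36 in EV, 126 ± 1.28 in WT and 175 ± 3.20 in MUT, followed by CCNB2 and CCND1. CCNE2 was the lowest in all 6 groups, at 3.52 ± 0.738 in untreated EV and 8.71 ± 0.874 in treated MUT. In treated EV, CCNB1 at 93.4 ± 9.32, CCND3 at 85.7 ± 4.35 and CCND1 at 78.1 ± 9.08 were neighbours in this order whose libraries overlapped. In treated WT, CCND3 at 87.2 ± 2.95 and CCNB1 at 81.6 ± 4.19 overlapped, and in treated MUT CCNB1 at 94.4 ± 3.69 was above CCND3 at 80.02 ± 1.45 in every library. In untreated MUT, CCNB2, CCND1, CCNE1, CCNA2 and CCND3 formed a run of ranks in which each overlapped the next. With the union of annotated exons as length, CCNB1 was again the highest and CCNE2 the lowest mean in all 6 groups, but CCND1 came next in each. In treated WT, CCNB1 was then at 68.0 CPM per kb, CCND1 at 67.5 and CCND3 at 30.7. CCND3 was the sixth to eighth of the 9, and CCNB2 was at 43.5 in untreated EV, below CCNA2 at 55.9.

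The balance between the classes moved the same way in all 3 lines. The D-type share of the 9 cyclins, on CPM per kb within each library, went from 31.6 ± 0.299% to 40.4 ± 2.03% in EV, from 31.0 ± 0.646% to 43.9 ± 0.587% in WT and from 24.9 ± 2.13% to 36.7 ± 0.914% in MUT. The B-type share went from 40.5 ± 0.329% to 34.0 ± 2.81% in EV, from 41.7 ± 0.455% to 29.3 ± 1.12% in WT and from 46.8 ± 1.59% to 32.9 ± 1.08% in MUT. Untreated MUT thus started with the largest B-type and the smallest D-type share of the 6 groups. The E-type share was 10.2 ± 0.140% and then 11.9 ± 0.180% in EV, 10.4 ± 0.336% and then 14.4 ± 0.328% in WT, and 11.7 ± 0.781% and then 16.4 ± 0.656% in MUT. Treated and untreated libraries of the same line did not overlap in any of these shares. These are descriptions without a test.

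The ratio of CCNE1 to CCNA2 sets the cyclin of S phase entry beside that of S phase and G2. On the log2 scale, from CPM per kb, it read -0.28, -0.27 and -0.20 in untreated EV and 0.60, 0.35 and 0.31 in treated EV. WT went from -0.16, -0.09 and -0.22 to 0.85, 0.66 and 0.94 and MUT from 0.12, 0.00 and 0.04 to 0.88, 0.86 and 0.69. The ratio of CCNE1 to CCNB1 had means of -1.36 ± 0.06 and then -0.84 ± 0.14 in EV, -1.41 ± 0.05 and then -0.45 ± 0.05 in WT, and -1.49 ± 0.11 and then -0.45 ± 0.07 in MUT. Every treated library was above every untreated one of its line in both ratios, and treated WT and MUT libraries were above treated EV ones. Differences between the lines in these ratios were not tested.

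**Figure D3:**
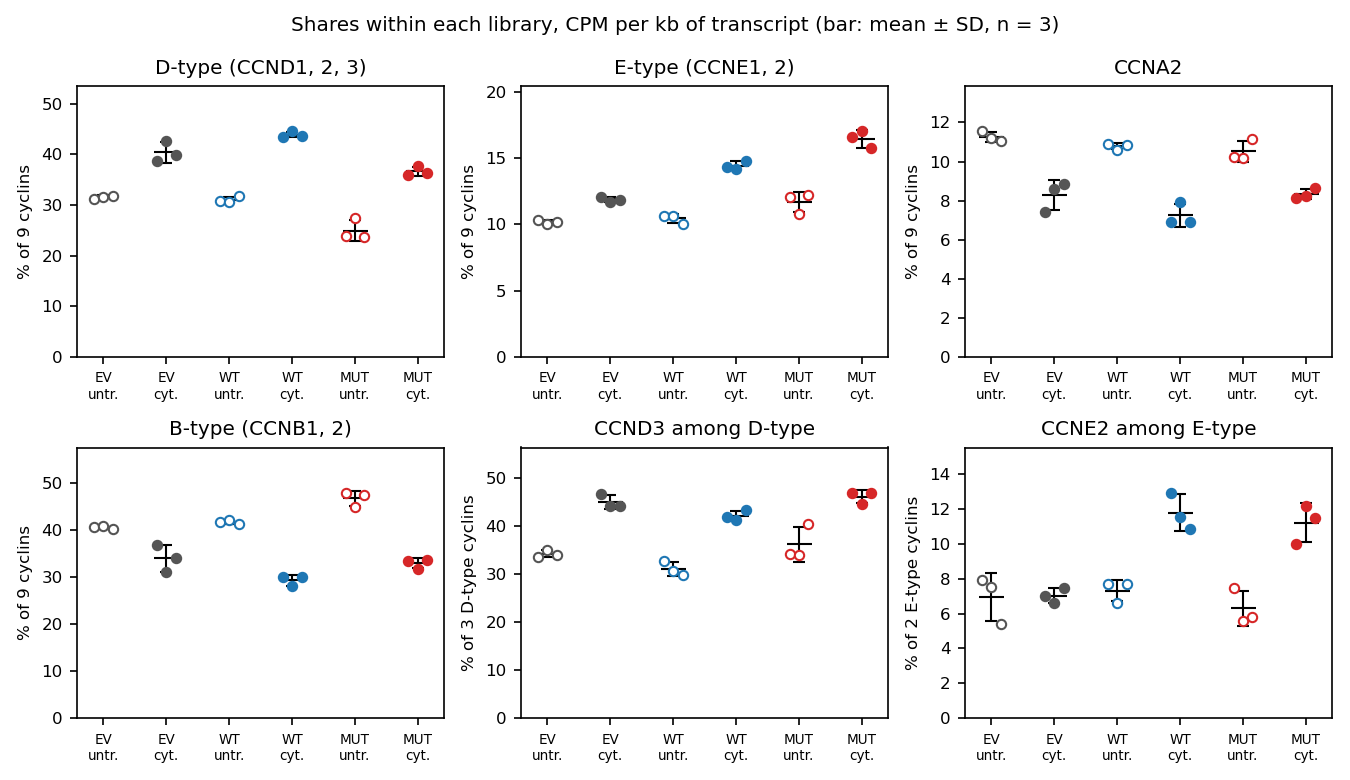
Shares within each of the 18 libraries, from CPM per kb of canonical transcript, in percent of the 9 cyclins or of a cyclin type (open circles untreated, filled circles cytarabine; EV grey, WT blue, MUT red; bars are mean and SD, n = 3). D-type shares are higher and B-type shares lower in treated than in untreated libraries of each line, and the CCNE2 share is higher after cytarabine in WT and MUT.

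The counts of called genes in the lists below stand beside 26.1%, 26.3% and 30.4% of all tested genes that rose and 22.9%, 22.7% and 25.9% that fell in EV, WT and MUT. The kinase partners did not follow 1 direction. CDK4, the partner of the D-type cyclins, fell in all lines, with log2 fold changes of -0.68, -0.49 and -0.78 in EV, WT and MUT, from group means of 333, 328 and 382 CPM to 208, 234 and 223 CPM. CDK6, the other D-type partner, fell in EV at -0.35 (SE 0.0930, edgeR adjusted p = 0.00398), with values of -0.10 in WT and 0.06 in MUT that did not pass. CDK2, the partner of E-type cyclins and cyclin A2, rose by 0.22, 0.31 and 0.38. CDK1, the partner of the B-type cyclins, was not among the genes that fell, and its values were 0.24 in EV, 0.19 in WT and 0.29 in MUT, of which the last passed the test (edgeR adjusted p = 0.0199). Of 8 CDK genes tested, 4, 3 and 5 fell and 1, 1 and 2 rose in EV, WT and MUT.

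Among the inhibitors, CDKN1A, which encodes p21 and is a target of p53, rose in all lines, with untreated means of 359 ± 3.89 (EV), 409 ± 12.6 (WT) and 253 ± 20.5 CPM (MUT) and treated means of 789 ± 17.9, 1036 ± 24.3 and 663 ± 2.73 CPM, log2 fold changes of 1.14, 1.34 and 1.39. CDKN1B (p27) fell in EV, -0.27, and WT, -0.54, with -0.06 in MUT, and the difference between MUT and WT passed the test at 0.48 (SE 0.101, edgeR adjusted p = 0.0272). Whether this CDKN1B call held with a library left out or with only the groups compared in the fit was not tested. CDKN2C (p18) read -0.14, -0.02 and -0.02 without passing. CDKN2A had at most 3 counts in any library and was not tested. Of 7 inhibitors tested, 4, 3 and 3 rose and 1, 2 and 1 fell in EV, WT and MUT, with median log2 fold changes of 0.60, -0.02 and 0.12. Of 9 phosphatases and kinases that act on the CDKs, 4, 3 and 4 fell and 1 rose in each line. CDC25B, a phosphatase that activates CDK1, fell, with log2 fold changes of -0.34, -0.48 and -0.41, and CDC25A fell in EV (-0.25) and MUT (-0.26). CDC25C passed in no line (0.10, 0.08 and -0.26; edgeR adjusted p 0.599, 0.694 and 0.120). WEE1, the kinase that restrains CDK1, fell in WT at -0.49 (SE 0.0894, edgeR adjusted p = 1.40e-04).

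Among the transcription factors upstream of the cyclins, E2F1, an activator of S phase genes, read -0.02, -0.03 and -0.13, and FOXM1, an activator of mitotic genes, -0.09, 0.00 and -0.04, without passing the test in any line. MYBL2 (B-MYB) fell in MUT, -0.25 (SE 0.0789, edgeR adjusted p = 0.0115), with -0.12 in EV and -0.07 in WT. E2F7, a repressor, rose in WT (0.32) and MUT (0.62), and E2F8 read -0.33, 0.01 and 0.55 without passing. RB1 rose in all lines, by 0.27, 0.36 and 0.52, and its relative RBL1 (p107) fell in EV (-0.30) and WT (-0.32). Of 21 genes of the RB, E2F and DREAM list, 8, 6 and 5 fell and 2, 3 and 6 rose, with medians of -0.22, -0.05 and -0.05. MYC, which drives CCND2 and other growth genes, fell, with log2 fold changes of -1.10, -1.13 and -1.01, from 267, 272 and 238 CPM to 125, 124 and 118 CPM.

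**Figure D4:**
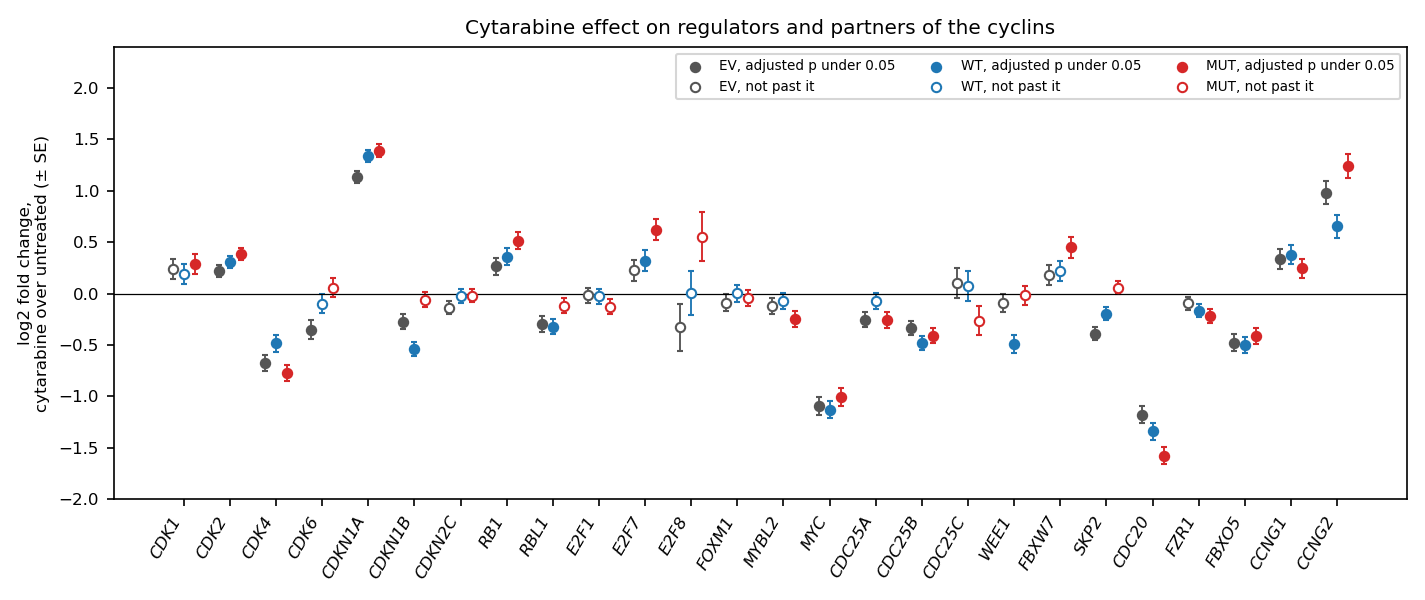
Log2 fold change of treated over untreated cells for 26 kinases, inhibitors, transcription factors, degradation factors and G-type cyclins, in EV (grey), WT (blue) and MUT (red), with SE; filled points have an edgeR adjusted p under 0.05. CDKN1A and CCNG2 are the genes above 0.6 in all lines, and CDC20 and MYC are those below -1 in all lines.

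Cyclins are removed by ubiquitin ligases, and genes of that machinery were mostly lowered. CDC20, which directs the anaphase-promoting complex to the B-type cyclins in mitosis, fell, with log2 fold changes of -1.18, -1.34 and -1.58, with untreated means of 364 ± 5.97 (EV), 306 ± 7.45 (WT) and 417 ± 44.1 CPM (MUT) and treated means of 161 ± 4.46, 121 ± 2.26 and 139.8 ± 16.8 CPM. FZR1 (CDH1 of that complex), which acts from late mitosis into G1, fell in WT (-0.16) and MUT (-0.22). FBXO5 (EMI1), the inhibitor of the complex, fell, with log2 fold changes of -0.48, -0.50 and -0.41. FBXW7, the ligase subunit that recognises cyclin E, rose in MUT at 0.45 (SE 0.0987, edgeR adjusted p = 7.10e-04), with 0.18 in EV and 0.22 in WT. SKP2 fell in EV (-0.39) and WT (-0.20) but read 0.06 in MUT, and the difference between MUT and EV passed the test at 0.45 (SE 0.0892, edgeR adjusted p = 0.0399). Whether this SKP2 call held with a library left out or with only the groups compared in the fit was not tested. Of 25 turnover genes, 16, 19 and 18 fell and 0, 1 and 2 rose in EV, WT and MUT, where 22.9%, 22.7% and 25.9% of all genes fell, with medians of -0.35, -0.39 and -0.41.

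The wider lists of phase-specific genes were read beside the cyclins. The G2/M list shares 3 genes with the CDK list, 1 with the phosphatases and kinases and 2 with the turnover list. The G1/S list shares 1 gene with the RB, E2F and DREAM list. The counts of these lists are thus not separate observations. Of 53 G2/M genes tested, 30, 39 and 35 fell and 2, 1 and 4 rose in EV, WT and MUT, with median log2 fold changes of -0.22, -0.30 and -0.29. CDC20 and CTCF fell furthest by the mean of the 3 lines among the 24 called lower in all lines, CTCF at -0.87, -0.95 and -0.80. NUSAP1, a spindle protein, was the 1 gene of the list called higher in all lines (0.15, 0.28 and 0.24). Of 42 G1/S genes, 4, 14 and 17 rose and 14, 9 and 14 fell, with medians of -0.11, 0.08 and -0.04. The helicase subunit MCM5 (-1.09, -0.66 and -0.94) and the uracil-DNA glycosylase UNG (-1.25, -0.84 and -0.95) fell furthest by the mean of the 3 lines among the 9 called lower in all lines. CASP8AP2 (0.41, 0.34 and 0.95) and BRIP1 (0.25, 0.37 and 0.60), a helicase of DNA repair, rose most among the 4 called higher in all lines. Of 18 other cyclins and cyclin-like genes tested, 5, 7 and 6 rose and 5, 3 and 4 fell. CCNG2, a cyclin linked to arrest, rose in each line, with untreated means of 22.9 ± 0.706 (EV), 21.7 ± 1.14 (WT) and 20.8 ± 2.37 CPM (MUT) and treated means of 45.2 ± 4.45, 34.1 ± 4.14 and 49.3 ± 6.83 CPM, log2 fold changes of 0.98, 0.66 and 1.24. CCNG1, a p53 target, rose by 0.34, 0.38 and 0.25, CABLES2 by 0.82, 0.72 and 0.93. CCNY fell, with log2 fold changes of -0.70, -0.55 and -0.63, and so did CCNJL, at -0.60, -0.58 and -0.64. All named rises and falls in this list passed the edgeR test in each line.

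**Figure D5:**
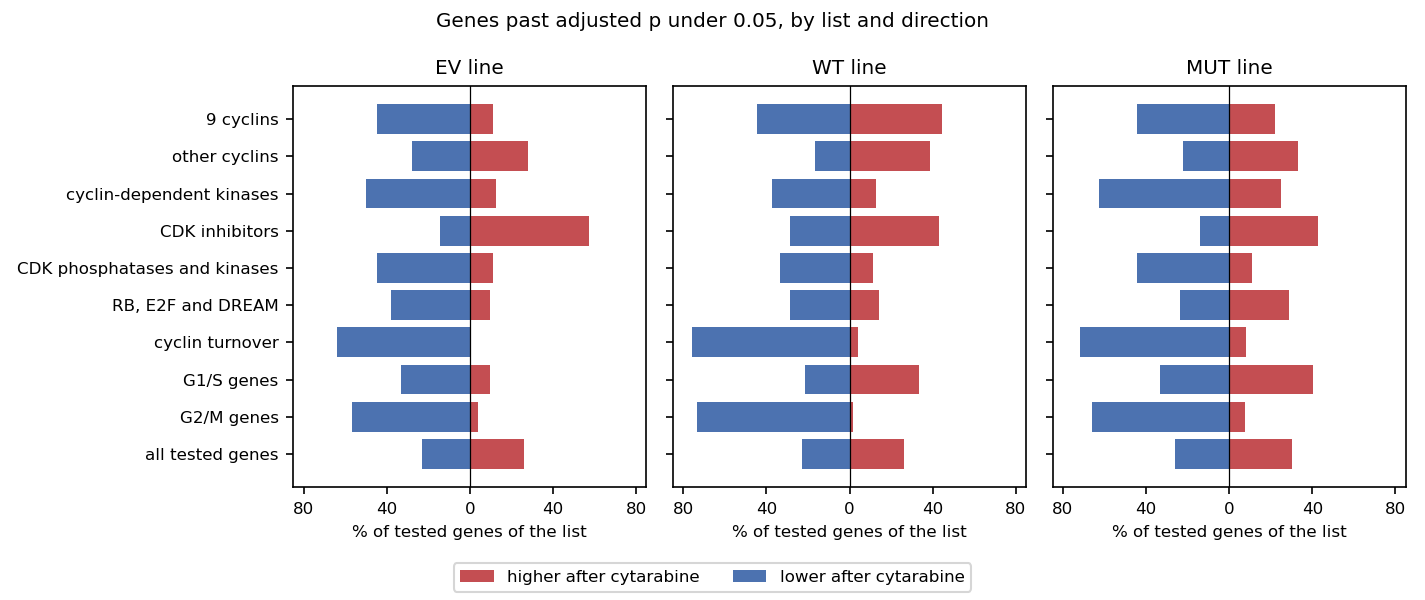
Percent of the tested genes of each list with an edgeR adjusted p under 0.05, higher (red, to the right) or lower (blue, to the left) after cytarabine, in the 3 lines; the lowest bar is all 18226 tested genes. Of the 53 G2/M genes 30, 39 and 35 were lower in EV, WT and MUT, and of the 42 G1/S genes 4, 14 and 17 were higher.

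The genes whose pattern over the 18 libraries was nearest to that of a cyclin were found by the root mean square difference of centred log2 CPM, among the 10864 tested genes whose log2 CPM averaged 3 or more. For CCNB1, whose own values had a root mean square of 0.369 about their mean, these were FTL (0.0815), CCT7 (0.0904) and NSA2 (0.0906). FTL, the ferritin light chain, changed by -0.40, -0.67 and -0.91, with untreated means of 484, 524 and 706 CPM, highest in MUT as for CCNB1. For CCNF (0.198) they were the spindle factor TPX2 (0.0687), NRAS (0.0699) and DCTN4 (0.0711). For CCNE2 (0.556) the nearest were WNT3 (0.257), the p53 relative TP73 (0.274) and ABHD3 (0.278), at a larger distance. TP73 rose by 0.71, 0.99 and 1.18, so that, unlike CCNE2, it also passed the test in EV. For CCND1 (0.136), whose pattern was nearly flat, they included MSANTD4 (0.0620) and GTF3C1 (0.0702). These distances describe likeness over the libraries and carry no test.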

How the data were processed

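Per the labels' protocols, cells were plated in biological triplicate, and RNA was extracted with a column kit and made into libraries with the NEBNext Ultra kit. Per the submitters' processing notes, CASAVA, STAR 2.6.1d and hg38 were used, and how reads were counted is not given in the sources used here. The authors deposited estimated counts per gene (70.9% whole, tolerance 1e-09) and a normalized signal, equal to 1 plus a library factor times the count (largest relative deviation 7.29e-06), used only as an alternative scaling. The members and gene lists were chosen with earlier results of these data known.

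Counts were rounded and analysed in edgeR 4.0.16 (R 4.3.3) with filterByExpr, TMM and 1 quasi-likelihood fit of 6 group means over 18 libraries. The common biological coefficient of variation was 0.104. P-values were adjusted over 18226 genes, SE is the absolute log2 fold change over the square root of F, with a prior count of 2 in log2 CPM. Replicates are separate cultures per the labels. Genes named are the 9 cyclins, 28 fixed regulators, the 2 largest rises and falls called in all lines in 3 lists, the 3 genes most like 4 cyclins, and genes overlapping a cyclin's exons, which were chosen after values were seen. Of the genes these rules name and of the marker lists, 1 each is not reported here. Scripts were tested on simulated data. Alternatives were other scalings, filters, DESeq2 1.42.0, a replicate block, fits of the compared groups, a minimum log2 fold change of 1 and leaving out each library. Same-numbered libraries correlated above 0.1 in all 3 pairs, after removal of group means, for treated EV with treated MUT (r = 0.146 to 0.461) and with untreated MUT (0.187 to 0.528), 2 of 15 pairs of groups. The pairing of treated EV and MUT rests on these values, as the labels name no shared batch. All replicates were kept.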

Additional observations from a re-analysis of the deposited data

Results flagged for a closer look

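The cytarabine effect on CCNB1 differed between lines by the interaction test itself: MUT minus EV was -0.526 on the log2 scale (SE 0.0963, edgeR adjusted p = 0.0246). Over the edgeR alternatives without a minimum fold change the adjusted p ran from 0.0116 to 0.167, and DESeq2 gave 2.0e-05. The value does not reach a minimum log2 fold change of 1.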

How the results depend on the processing

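Over 26 alternatives, 2594 of 2808 values of single cyclins kept their direction and their side of the threshold, 66 changed sign while called in neither fit, 91 lost and 57 gained a call, and none that was called changed sign. The counts of cyclins called moved as follows. Against a minimum absolute log2 fold change of 1, 0 were called for the cytarabine effect in EV, 1 in WT and 1 in MUT, 0 for the difference MUT minus EV, 0 in each comparison of untreated lines, and for treated lines 1 (WT minus EV), 1 (MUT minus EV) and 0 (MUT minus WT). With only the groups compared in the fit, 2 were called for the difference of effects WT minus EV and 0 for MUT minus EV, 4 for untreated WT minus EV and 7 for treated MUT minus WT. DESeq2 called 1, 2 and 1 for the differences WT minus EV, MUT minus EV and MUT minus WT. The authors' library factors gave 2 for treated WT minus EV, and no filter on low counts gave 1 for treated MUT minus WT. Leaving out 1 library gave 0 to 2 for the differences WT minus EV and MUT minus EV, 0 to 1 for MUT minus WT, 1 to 2 and 2 to 5 for untreated WT and MUT minus EV, and 2 to 6 and 1 to 4 for treated WT minus EV and MUT minus WT. The causes were not tested.

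Over all genes, the differences of effects WT minus EV, MUT minus EV and MUT minus WT called 52, 39 and 183 genes, against 138, 554 and 803 with DESeq2 and 278, 1 and 51 with only the groups compared. Leaving out 1 library gave 12 to 148, 8 to 666 and 38 to 810.

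With the replicate number as a block in the fit of all libraries, 5, 8 and 6 cyclins were called for the effects in EV, WT and MUT and 1 call was gained, CCNB2 in untreated MUT minus WT (0.21, edgeR adjusted p = 0.0444). The block moved the all-gene count for the difference MUT minus EV from 39 to 25. A block in a fit of treated EV and MUT alone, chosen after seeing the pairing in the data, called CCNE1 and CCNE2, the 2 cyclins called without it. The blocks changed no other call of a cyclin.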
